A study of Mus musculus with 27 samples.

Results

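The effect of propylthiouracil (PTU), which blocks the synthesis of thyroid hormone, was compared between hearts in which alpha-adrenergic receptors were also blocked with phenoxybenzamine (PHE) and hearts in which they were not. The quantity described is an interaction: the log2 difference between PTU+PHE and PHE hearts of set A, minus the log2 difference between PTU and saline hearts of set B. It rests on 12 of the 27 RNA-seq libraries, chosen by their labels and not by any measured value. Each is from a heart of a CD-1 mouse pup taken 14 days after birth, with 3 hearts in each of 4 groups. The PTU+PHE pups of set A were born to mothers given 0.15% PTU in iodine-deficient chow from E13.5 onward and received 10 ug of PHE per g of body weight per day under the skin from postnatal day 1. The PHE pups of set A had the injections without PTU. The PTU pups of set B had the mothers' PTU chow without PHE, and the saline pups of set B had neither drug. For all 4 groups postnatal day 1 is given as the start of injections. Every PHE heart is in set A and every heart given PTU alone is in set B, so block of alpha receptors and set cannot be told apart. No hormone level and no litter is given, and hearts of 1 group may share a litter, in which case the p-values reflect the spread between these samples only.

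Thyroid hormone acts on heart cells through nuclear receptors and, around birth, switches the myocardium from fetal to adult contractile proteins and raises its capacity to burn fat. Noradrenaline from the sympathetic nerves acts through alpha-adrenergic receptors, some of which couple to Gq, calcium and protein kinase C. It also acts through beta-adrenergic receptors, which couple to Gs and cyclic AMP. PHE binds alpha receptors covalently. An interaction above 0 means that PTU raised a gene more, or lowered it less, under PHE than without it, and an interaction below 0 means the opposite. It does not say by itself in which of the 4 groups the gene stood out.

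The 12 libraries held 44683064 to 78913915 reads assigned to genes. Levels are given as CPM, read counts scaled to the effective size of each library. The 12 cardiomyocyte markers, all tested and abundant as the heart label implies, summed to 55332 to 55591 CPM in PTU+PHE hearts, 94950 to 114451 in PHE hearts, 40938 to 45172 in PTU hearts and 79710.1 to 90099 in saline hearts. Xist and Y-linked genes gave 1 male and 2 females among the PTU+PHE hearts, 3 males among the PHE hearts, and 2 males and 1 female in both the PTU and the saline group. Set A also has 3 saline hearts, which do not enter the interaction. Libraries of saline hearts with the same number in the 2 sets deviated together from their group means, with a correlation across 9061 genes of 0.889 to 0.940, while pairs with different numbers gave -0.723 to 0.129. Whether the same hearts were used in both sets is not stated in the labels. Between saline hearts of set A and those of set B 814 genes were called (4.26% of those tested), 278 higher in set A (1.45%) and 536 lower (2.80%). With the heart number as a block in the 6 saline libraries 6000 were called. Of the 814, 122 differed at least 4-fold. None of the 122 was called in the interaction, which called 4.10% of all genes tested. It called 42 of all 814, which made up 5.36% of its 783 calls, against 4.26% of all genes tested. A set difference that is equal with and without PTU cancels in the interaction. This overlap therefore cannot show whether set has a part in the calls.

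PTU had broadly similar effects in both backgrounds, and a minority of genes differed. Of 19119 genes tested, 7038 were called between PTU+PHE and PHE hearts (36.8%) and 5615 between PTU and saline hearts (29.4%), with edgeR's quasi-likelihood test at an adjusted p under 0.05. Of all genes tested, 18.2% rose and 18.6% fell with PTU under PHE, and 14.3% rose and 15.1% fell without it. The interaction itself was called for 783 genes, 4.10% of those tested: 268 above 0 (1.40%) and 515 below 0 (2.69%). At an unadjusted p under 0.05 there were 4091. Across 9179 genes of at least 10 CPM, the 2 PTU effects, which share no library, had a Pearson r of 0.77 and a Spearman rho of 0.627, across genes that are not independent replicates. Their signs were the same for 69.8% of these genes, and for 83.7% of those called in either background. The SD of the interaction over these genes was 0.40 on the log2 scale, against 0.61 for the PTU effect under PHE and 0.55 for the PTU effect without PHE.

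**Figure D1:**
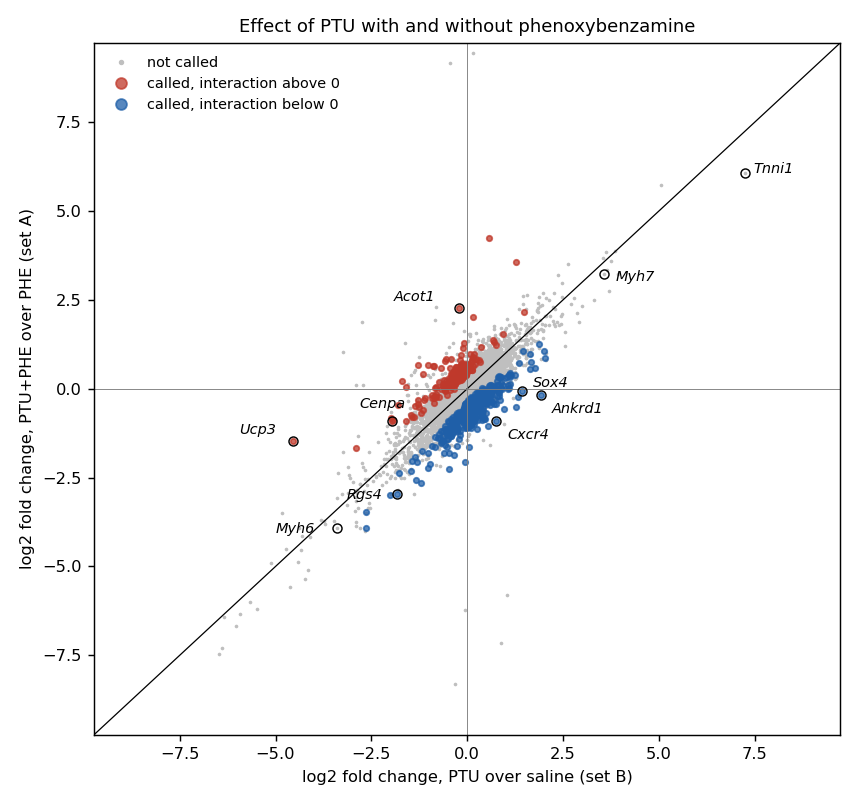
Log2 fold change of PTU+PHE over PHE hearts (vertical axis) against that of PTU over saline hearts (horizontal axis) for 10805 genes of at least 5 CPM, n = 3 hearts per group; points on the diagonal have no interaction. The 632 called genes among them lie off the diagonal, 185 above it and 447 below it. Open circles mark the labelled genes, of which Myh6, Myh7 and Tnni1 were not called.

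Most called genes had a PTU effect that was itself called in 1 background only. Of the 268 genes above 0, 125 rose with PTU under PHE only, 88 fell with PTU only without PHE, 21 fell in both, 12 rose in both and 21 rose under PHE but fell without it. Of the 515 below 0, 254 fell with PTU under PHE only, 126 rose only without PHE, 67 fell in both, 25 rose in both and 41 fell under PHE but rose without it; the other 1 and 2 genes were called in neither background. For comparison, the 3 hearts per group did not overlap in 43.8% of tested genes between PTU+PHE and PHE and in 53.6% between PTU and saline. The number of interaction calls moved with every library left out. It was 1485 without PTU+PHE 1, 309 without PTU+PHE 2 and 508 without PTU+PHE 3. It was 232, 438 and 503 without PHE 1, 2 and 3, then 261, 458 and 362 without PTU 1, 2 and 3, and 270, 324 and 381 without saline 1, 2 and 3 of set B. Of 75 called genes chosen by the naming rule, 28 stayed called in each of these 12 fits, and none changed sign in any of them.

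Ucp3 (ENSMUSG00000032942, mm10 chromosome 7, 100472990 to 100486432), a carrier of the inner mitochondrial membrane that responds to thyroid hormone and to fatty acids, had 25.9, 27.6 and 36.9 CPM in PTU+PHE hearts against 94.4, 66.7 and 88.1 CPM in PHE hearts. In PTU hearts it had 3.38, 3.92 and 1.78 CPM, against 68.2, 58.4 and 86.4 CPM in saline hearts of set B. PTU hearts were far below the other 3 groups, whereas PTU+PHE hearts lay between PTU hearts and the hearts without PTU, with no overlap between any of these. PTU+PHE hearts had 0.363 of the level of PHE hearts and PTU hearts 0.0431 of that of saline hearts, an interaction of 3.07 ± 0.46 on the log2 scale (SE, adjusted p = 0.0028). It ranged over 2.81 to 3.29 with each library left out. The promoter of Ucp3, 250 bases before to 50 after its start as RefSeq places it on GRCm38.p6 (chr7:100472741-100473040, plus strand), is shown because this gene had the steepest named interaction, with capitals for each AGGTCA, the half-site that nuclear receptors of the thyroid hormone and PPAR families bind.
Ucp3: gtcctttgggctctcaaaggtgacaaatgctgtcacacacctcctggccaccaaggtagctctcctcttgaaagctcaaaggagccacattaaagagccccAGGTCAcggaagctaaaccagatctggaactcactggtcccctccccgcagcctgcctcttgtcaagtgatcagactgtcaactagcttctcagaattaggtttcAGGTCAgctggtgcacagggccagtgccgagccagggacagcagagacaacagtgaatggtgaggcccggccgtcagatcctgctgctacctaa
The half-site occurred 2 times in it, at 149 and 44 bases before the start. On either strand, 16.3% of 32817 mouse promoters of this length held at least 1 match and 1.81% held 2 or more. A direct repeat of the half-site with 1 spacer base was also searched for. This repeat had no match in the Ucp3 promoter, and 0.0396% of the 32817 promoters held it.

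Acot1 (ENSMUSG00000072949, mm10 chromosome 12, 84009490 to 84018371), which cleaves acyl-CoA in the cytosol, had 79.8, 108 and 177 CPM in PTU+PHE hearts, against 26.7, 27.49 and 21.8 CPM in PHE hearts. It had 15.7, 20.95 and 20.2 CPM in PTU hearts, which overlapped the 24.3, 24.1 and 17.99 CPM of saline hearts. In these 12 hearts its rise was thus called under PHE only, 4.79-fold, with an interaction of 2.49 ± 0.43 (adjusted p = 0.00535). Acot1 has close copies beside it in the genome, so its reads may be split with them. Its promoter (chr12:84009252-84009551, plus strand) is given for comparison with that of Ucp3 and holds no AGGTCA on either strand.
Acot1: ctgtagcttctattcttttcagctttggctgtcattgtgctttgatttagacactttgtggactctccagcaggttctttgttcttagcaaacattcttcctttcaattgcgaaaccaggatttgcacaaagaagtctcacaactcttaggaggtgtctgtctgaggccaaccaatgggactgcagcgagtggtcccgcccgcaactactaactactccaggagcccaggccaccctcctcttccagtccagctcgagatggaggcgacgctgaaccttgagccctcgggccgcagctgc
Across the list of PPAR alpha targets, a list assembled after values of these data had been seen, 7 of 21 genes with a RefSeq promoter held the half-site. In the fatty acid oxidation list 6 of 25 did. A gene was counted if any of its promoters matched, so these counts cannot be set against the 16.3% of single promoters.

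**Figure D2:**
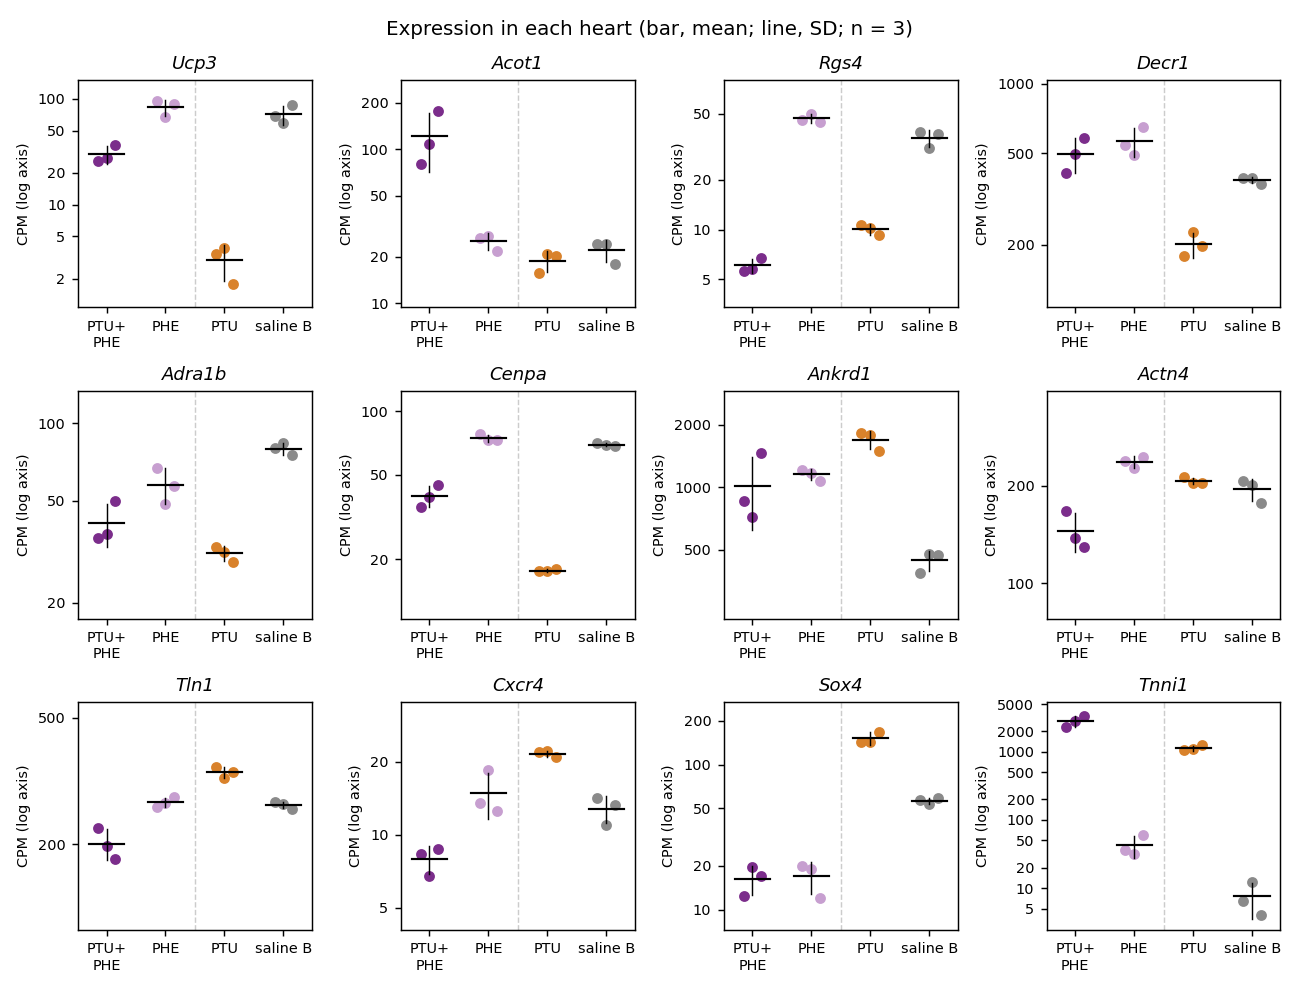
CPM on a log axis for 12 genes in each of the 12 hearts, with PTU+PHE and PHE of set A left of the dashed line and PTU and saline of set B right of it; the bar is the mean and the line the SD of 3 hearts. In these 12 hearts, Ucp3 and Cenpa fell less with PTU under PHE, Acot1 rose only under PHE and Rgs4 fell more under PHE. Ankrd1 and Sox4 rose only without PHE, and Tln1 and Cxcr4 fell under PHE but rose without it.

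Genes of fatty acid oxidation as a list fell with PTU mostly in hearts without PHE. Of 30 tested, 10 fell and 3 rose between PTU+PHE and PHE hearts (median log2 -0.19), and 22 fell and 1 rose between PTU and saline hearts (median -0.55). Over all genes 18.6% fell with PTU under PHE and 15.1% without it. The interaction was called above 0 for 4 (13.3% of the list, against 1.40% of all genes) and below 0 for none. Of the 30 values, 27 were positive, and their median was 0.46, beside 0.02 over all genes. Decr1, which prepares unsaturated acyl chains for oxidation, had 409.8, 497 and 584 CPM in PTU+PHE hearts and 544, 493 and 652 CPM in PHE hearts. It had 177, 227 and 197 CPM in PTU hearts and 389, 389 and 367 CPM in saline hearts, an interaction of 0.75 ± 0.20 (adjusted p = 0.0364). The hearts of set A overlapped, and those of set B did not. Slc25a20, the carnitine and acylcarnitine carrier, followed the same pattern, with an interaction of 0.62 ± 0.18 (adjusted p = 0.0458). The list of PPAR alpha targets, as stated above, was assembled after values of these data had been seen. Of its 27 tested genes 7 were called above 0 (25.9%, against 1.40% of all genes) and none below, with a median of 0.50. They include Pex11a, which divides peroxisomes, with 18.1 ± 2.85 CPM (mean and SD) in PTU+PHE hearts, 22.51 ± 1.19 in PHE hearts, 7.61 ± 1.16 in PTU hearts and 18.4 ± 0.931 in saline hearts (interaction 0.96 ± 0.22). The kinase gene Pdk4, which restrains pyruvate oxidation, gave 1.52 ± 0.48 (adjusted p = 0.0736) and did not pass the test. With 1 library left out, Decr1 was called in 3 of 12 fits, Slc25a20 in 2 and Pex11a in 9, whereas Acot1 was called in all 12. The 9 adipocyte markers tested summed to 829 to 1009 CPM in PTU+PHE hearts and 998 to 1257 in PHE hearts, which overlapped, and to 449.9 to 481 CPM in PTU hearts and 703 to 732 in saline hearts, which did not. Adipoq, which defines adipocytes, averaged 0.107 CPM, and Fabp4, which endothelium also expresses, 581 CPM over the 12 hearts. The median interaction of the 9 was 0.31, edgeR called 0, DESeq2 called 1, and 1 had an unadjusted p under 0.05. The part of these markers in the lipid results was not tested.

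Other genes of energy and lipid metabolism with an interaction above 0 were Fbp2, the muscle form of fructose bisphosphatase, at 1.51 ± 0.34, and Acat2, the cytosolic acetoacetyl-CoA thiolase, at 1.40 ± 0.34. Fbp2 averaged 63.99 ± 10.6 CPM in PTU+PHE hearts, 40.9 ± 8.52 in PHE hearts, 12.01 ± 1.65 in PTU hearts and 21.9 ± 2.78 in saline hearts, so that PTU raised it under PHE and lowered it without PHE. Fbp2 lost its call without PHE 1 and without PTU 1, at 1.39 or more throughout, and Acat2 was called in 6 of 12 fits. Me1, cytosolic malic enzyme and a target of thyroid hormone, had 56.51, 68.7 and 65.8 CPM in PTU+PHE hearts, 79.7, 80.1 and 77.05 in PHE hearts, 30.99, 32.2 and 30.6 in PTU hearts and 80.9, 67.1 and 58.1 in saline hearts (interaction 0.82 ± 0.19, adjusted p = 0.0174). It was called in 10 of 12 fits with 1 library left out. Among 50 nuclear genes of oxidative phosphorylation none was called by edgeR or DESeq2 and 5 had an unadjusted p under 0.05. Of these 50, 25 fell with PTU under PHE and 46 without it, against 18.6% and 15.1% of all genes. Their median interaction was 0.19. Of 13 mRNAs of the mitochondrial genome, 7 fell under PHE and all 13 without it, and mt-Nd1 (0.66 ± 0.18) and mt-Nd3 (1.18 ± 0.30) were called above 0, in 2 and 4 of 12 fits.

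The mitochondrial ribosomal RNAs also had interactions above 0. The 12S gene mt-Rnr1 had 1115, 2533 and 1526 CPM in PTU+PHE hearts and 1092, 1293 and 904 CPM in PHE hearts, which overlapped. It had 575, 493 and 542 CPM in PTU hearts, all below the 1306, 1219 and 1366 CPM of saline hearts, for an interaction of 1.93 ± 0.40 (adjusted p = 0.0122). The 16S gene mt-Rnr2 gave 1.57 ± 0.41 and was called in 3 of 12 fits. Ribosomal RNA left in a library depends on how it was removed, and whether that differed between libraries was not tested. Tent5a, a poly(A) polymerase of secretory cells, was raised by PTU only under PHE (42.3, 73.46 and 45.03 CPM in PTU+PHE hearts, 14.9, 12.02 and 12.7 in PHE hearts, 32.1, 34.01 and 39.2 in PTU hearts and 27.9, 33.9 and 32.7 in saline hearts; interaction 1.86 ± 0.36). Here the low group was PHE, below all the others. Resf1 (1.37 ± 0.31) was higher in every PTU+PHE heart than in the 9 other hearts. Plbd1, a lysosomal phospholipase-like protein, fell in PTU hearts to 4.32, 6.94 and 6.7 CPM, against 22.4, 18.97 and 21.4 CPM in saline hearts (interaction 1.36 ± 0.26). In PTU+PHE hearts Plbd1 had 15.2, 18.6 and 25.1 CPM and in PHE hearts 24.4, 22.00 and 34.2 CPM, which overlapped. Resf1 lost its call without PTU+PHE 2 and without PHE 1.

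Atf4, the transcription factor of the integrated stress response, rose with PTU under PHE (132, 129.7 and 162 CPM in PTU+PHE hearts and 96.8, 97.7 and 102 in PHE hearts) whereas without PHE all PTU hearts lay below the saline hearts (79.1, 78.4 and 82.8 CPM in PTU hearts and 103, 98.8 and 88.6 in saline hearts; log2 -0.27, adjusted p = 0.0534), with an interaction of 0.79 ± 0.15 (adjusted p = 0.00697). Of 19 genes of that response 2 were called above 0, Atf4 and the amino acid transporter subunit Slc3a2 (0.62 ± 0.18, called in 0 of 12 fits), and the list median was -0.13. Among antioxidant genes Gclm (0.48 ± 0.12), a subunit of the enzyme that limits glutathione synthesis, and the catalase gene Cat (0.41 ± 0.12) were called above 0, 2 of 18 tested; Gclm held in 4 of 12 fits and Cat in 1. Cenpa, the histone variant of the centromere, had 35.4, 39.4 and 44.6 CPM in PTU+PHE hearts and 77.8, 72.98 and 72.8 CPM in PHE hearts. It had 17.6, 17.55 and 17.97 CPM in PTU hearts and 70.7, 69.2 and 68.54 CPM in saline hearts. PTU lowered it in both backgrounds without overlap, and less so under PHE (interaction 1.07 ± 0.16, adjusted p = 0.00156). Cenpa was the 1 called gene of 37 of G2 and M phase, whose median was 0.43. Of these 37, 26 rose with PTU under PHE and 3 without it, against 18.2% and 14.3% of all genes.

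Sgk1 and Apold1, genes of rapid response to hormones and stress, were lowered by PTU only in hearts without PHE. Sgk1, a kinase induced by glucocorticoids, had 133, 64.4 and 74.1 CPM in PTU+PHE hearts and 62.04, 70.2 and 129 CPM in PHE hearts, against 32.4, 28.2 and 37.9 CPM in PTU hearts and 93.8, 116 and 90.6 CPM in saline hearts (interaction 1.66 ± 0.43, adjusted p = 0.0363). Apold1, an early response gene of endothelium, had 29.96, 23.4 and 14.8 CPM in PTU+PHE hearts, 18.3, 19.8 and 20.9 in PHE hearts, 12.2, 15.1 and 17.6 in PTU hearts and 57.45, 62.3 and 26.4 in saline hearts (1.91 ± 0.42). Saline heart 3 lay below the other saline hearts for Apold1. Of 12 fits with 1 library left out, Sgk1 was called in 3 and Apold1 in 8. Klf6 (0.85 ± 0.24) was called above 0 and Fosl1 (-0.91 ± 0.25) below 0 among 20 immediate early genes, each with few such fits (3 and 1). None of 15 cyclic AMP response genes was called by edgeR, with 6 at an unadjusted p under 0.05 and a median of 0.93; DESeq2 called 4 above 0 and 1 below.

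The steepest interaction below 0 among named genes was that of Ankrd1 (ENSMUSG00000024803, mm10 chromosome 19, 36111961 to 36120099), an ankyrin repeat protein of the sarcomere and nucleus that responds to load. It had 862, 722 and 1458 CPM in PTU+PHE hearts and 1215, 1168 and 1073 CPM in PHE hearts, which overlapped. It had 1821, 1778 and 1494 CPM in PTU hearts, all above the 388, 475 and 469 CPM of saline hearts. PTU raised it 3.82-fold without PHE, and under PHE the change was -0.18 (adjusted p = 0.637), an interaction of -2.12 ± 0.39 (adjusted p = 0.00697). PHE hearts were already above the saline hearts of their own set, which had 459, 560.4 and 533 CPM. Its promoter on GRCm38.p6 (chr19:36119795-36120094, minus strand) is shown with capitals for CATTCC, the M-CAT element that TEAD factors bind, here read on the other strand as GGAATG.
Ankrd1: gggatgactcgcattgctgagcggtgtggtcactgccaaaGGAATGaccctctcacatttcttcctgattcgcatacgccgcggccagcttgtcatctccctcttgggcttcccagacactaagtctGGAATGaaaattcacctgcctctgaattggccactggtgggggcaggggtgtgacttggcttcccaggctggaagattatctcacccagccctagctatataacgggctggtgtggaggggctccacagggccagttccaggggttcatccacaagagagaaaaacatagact
The 2 matches start 210 and 123 bases before the transcription start that RefSeq gives. The gene span given above comes from another annotation and reaches to 36120099, so this whole window lies within it. Of the 32817 promoters, 14.7% held at least 1 match on either strand and 1.36% held 2 or more. Of 13 tested YAP targets, Ankrd1 was the 1 called, 12 were negative, and the median was -0.28.

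Genes that anchor actin to the cell membrane and the matrix mostly lay below 0. Of 25 genes of focal adhesions and costameres, a list also assembled after values had been seen, 7 were called below 0 and none above. This was 28% of the list, against 2.69% of all genes called below 0, and the list median was -0.35. Under PHE 3 of them rose and 6 fell with PTU, shares near those of all genes (18.2% and 18.6%). Without PHE 12 rose and 1 fell, against 14.3% and 15.1% of all genes. Tln1, the talin that links integrins to actin, had 224, 198 and 179 CPM in PTU+PHE hearts and 261, 270.1 and 280.5 CPM in PHE hearts. It had 349.7, 323 and 336 CPM in PTU hearts and 271, 268 and 258 CPM in saline hearts. PTU thus lowered it under PHE and raised it without PHE, with no overlap in either set (interaction -0.77 ± 0.12, adjusted p = 0.00178). Actn4, the alpha-actinin of nonmuscle actin bundles, had 167, 138 and 129 CPM in PTU+PHE hearts and 239, 226 and 245 CPM in PHE hearts. It had 213, 203 and 204 CPM in PTU hearts, which overlapped the 206, 201 and 177 CPM of saline hearts (interaction -0.80 ± 0.15). The tensin Tns3 gave -0.72 ± 0.16. Tln1, Actn4 and Tns3 were called in all 12 fits with 1 library left out.

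Mybpc2, the fast skeletal form of myosin binding protein C, had 24.2, 19.6 and 25.2 CPM in PTU+PHE hearts, 34.7, 29.6 and 33.6 in PHE hearts, 44.51, 38.7 and 42.9 in PTU hearts and 14.9, 21.9 and 15.8 in saline hearts (interaction -1.77 ± 0.32). The cardiac form Mybpc3 gave -0.63 ± 0.14 and the M-band protein gene Myom2 -0.79 ± 0.18. PTU raised all 3 in hearts without PHE. Mybpc3 lost its call without PHE 1 and without saline 3 of set B. Of 14 adult sarcomere genes Mybpc3 and Myom2 were called and the median was 0.09.

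The steepest changes of opposite sign in the 2 backgrounds included Cxcr4, the receptor of the chemokine Cxcl12. It had 8.28, 6.75 and 8.73 CPM in PTU+PHE hearts, all below the 13.51, 18.4 and 12.49 CPM of PHE hearts. It had 21.9, 22.1 and 20.9 CPM in PTU hearts, all above the 14.1, 10.9 and 13.2 CPM of saline hearts. The interaction was -1.66 ± 0.21 (adjusted p = 0.000493). Clu, an extracellular chaperone, had 87.6, 76.50 and 82.3 CPM in PTU+PHE hearts and 131, 125 and 143 CPM in PHE hearts, with 134, 118 and 127 CPM in PTU hearts and 91.1, 80.2 and 98.02 CPM in saline hearts (-1.18 ± 0.16, adjusted p = 0.000493). The netrin receptor gene Unc5b (-1.04 ± 0.17) and Pacs2 (-0.81 ± 0.11), a sorting protein at contacts between endoplasmic reticulum and mitochondria, likewise fell under PHE and rose without it. Genes that PTU raised in both backgrounds, but less under PHE, were Afmid, an enzyme of tryptophan breakdown (0.87 ± 0.14 under PHE and 2.02 ± 0.15 without it), Ccdc8 (1.25 ± 0.08 and 1.88 ± 0.08) and the secreted semaphorin gene Sema3b (0.57 ± 0.13 and 1.64 ± 0.13). These 6 were called with every library left out, as was Cxcr4.

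Genes of blood vessels, fibroblasts and matrix lay below 0 more often than above. Over all genes 2.69% were called below 0 and 1.40% above. Of 31 matrix genes 4 were called below 0 (12.9%) and none above. In this list 30 values were negative and the median was -0.47. Col4a1, a chain of the collagen of basement membranes, had 1083, 817 and 771 CPM in PTU+PHE hearts and 1881, 2063 and 1916 CPM in PHE hearts. It had 1959, 1800.0 and 1912 CPM in PTU hearts and 2203, 2443 and 2375 CPM in saline hearts, an interaction of -0.83 ± 0.20 (adjusted p = 0.0211). Its partner Col4a2 gave -0.74 ± 0.18, the proteoglycan gene Bgn -0.56 ± 0.15 and the laminin gene Lama4 -0.42 ± 0.12. Endothelial markers gave 3 calls below 0 of 17 (median -0.38): Sox18 at -0.94 ± 0.21, the cadherin gene Cdh5 at -0.65 ± 0.17 and Kdr, the main receptor of VEGF, at -0.52 ± 0.15. Mural cell markers gave 3 of 12 (median -0.41): Notch3 at -0.93 ± 0.23, Cspg4 at -0.77 ± 0.18 and Pdgfrb at -0.55 ± 0.15. Fibroblast markers gave 2 of 12 (median -0.27), Mfap4 at -1.12 ± 0.21 and Fbln1 at -0.78 ± 0.20. Of these 12 genes only Mfap4 was called in all 12 fits with 1 library left out, and Sox18 lost its call without PHE 2 and without PTU 1; the others were called in 1 to 6 of the 12. Without PTU+PHE 3 and saline 3 of set B together, 2 fibroblast markers and 1 endothelial marker were called, and 0 mural and 0 matrix genes.

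In whole hearts, fewer cells of a type and less RNA per cell cannot be told apart, so the summed markers are given beside these calls. The 17 endothelial markers summed to 2198 to 2681 CPM in PTU+PHE hearts, 3619 to 4047 in PHE hearts, 2335 to 2576 in PTU hearts and 3135 to 3171 in saline hearts. The 12 mural markers summed to 2996 to 3369 CPM in PTU+PHE hearts, 4176 to 4394 in PHE hearts, 3445 to 3684 in PTU hearts and 3604 to 3786 in saline hearts. The 12 fibroblast markers summed to 3892 to 4320 CPM in PTU+PHE hearts, 4826 to 4956 in PHE hearts, 6209 to 6673 in PTU hearts and 5431 to 5845 in saline hearts. PTU+PHE hearts were below PHE hearts for all 3 sums without overlap, while PTU hearts were below saline hearts for the endothelial sum and above them for the fibroblast sum. Their part in the results was not tested. Lymphocyte markers summed to 6.45 to 9.17 CPM in PTU+PHE hearts, 15.7 to 18.3 in PHE hearts, 8.03 to 9.82 in PTU hearts and 9.63 to 19.5 in saline hearts. The B cell kinase gene Blk (-2.01 ± 0.55) and the B cell receptor subunit gene Cd79b (-1.34 ± 0.36) were called below 0, in 1 and 3 of 12 fits. Summed neutrophil markers were 58.9 to 128.0 CPM in PTU+PHE hearts, 25.6 to 47.6 in PHE hearts, 8.69 to 14.6 in PTU hearts and 5.22 to 11.4 in saline hearts, and none of 14 was called in the interaction by edgeR or DESeq2, with 1 at an unadjusted p under 0.05.

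Sox4, a factor of embryonic development, had 12.3, 19.6 and 17.1 CPM in PTU+PHE hearts, 19.9, 18.98 and 12.1 in PHE hearts, 144, 143 and 169 in PTU hearts and 57.1, 53.1 and 58.8 in saline hearts (interaction -1.49 ± 0.35, adjusted p = 0.0202). Saline hearts of set A had 22.2, 23.6 and 27.7 CPM, below those of set B, so the level of this gene also differed between the sets (-1.20 ± 0.25 for set A minus set B). The same difference between saline hearts was called for Gclm (-0.53 ± 0.09), Sox18 (-0.67 ± 0.15), Adrb1 (-0.93 ± 0.21) and Hcn2 (-0.92 ± 0.14). It was also called for Adra1d (-0.97 ± 0.14) and, most steeply, for Gnas (-4.41 ± 0.25). Rasl11b, a small GTPase of the Ras family, rose with PTU only without PHE (54.3, 37.6 and 59.1 CPM in PTU+PHE hearts and 77.1, 59.50 and 41.8 in PHE hearts; 76.1, 64.4 and 56.1 in PTU hearts and 28.9, 22.8 and 27.4 in saline hearts; interaction -1.55 ± 0.32). Papln, a matrix protein, fell with PTU under PHE to 16.6, 11.01 and 9.6 CPM, against 44.3, 44.6 and 47.52 CPM in PHE hearts, and had 49.3, 49.3 and 44.7 CPM in PTU hearts and 54.2, 63.8 and 63.2 CPM in saline hearts (-1.53 ± 0.31). Nynrin gave -1.55 ± 0.32, the neural splicing factor Srrm4 -1.46 ± 0.34, the zinc finger gene Zfp366 -1.77 ± 0.44, the antiangiogenic peptidase gene Vash1 -1.38 ± 0.39 and Rrad, a GTPase that restrains calcium channels, -1.58 ± 0.44. Nynrin, Papln and Rasl11b were called in all 12 fits, Srrm4 in 8, Sox4 in 7, Zfp366 in 4, Rrad in 2 and Vash1 in 1.

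The receptors that PHE blocks were themselves among the called genes, in both directions. Adra1b fell with PTU in both backgrounds, to 35.7, 37.1 and 49.8 CPM in PTU+PHE hearts against 67.1, 48.6 and 57.1 CPM in PHE hearts, and to 32.9, 31.53 and 28.9 CPM in PTU hearts against 80.2, 83.7 and 75.1 CPM in saline hearts. Only in set B did the hearts not overlap (interaction 0.86 ± 0.23, adjusted p = 0.0371), and the call held in 2 of 12 fits. Adra1d had 3.54, 2.58 and 2.99 CPM in PTU+PHE hearts, 3.18, 3.96 and 3.41 in PHE hearts, 10.46, 10.7 and 12.6 in PTU hearts and 6.53, 6.73 and 5.76 in saline hearts; it rose with PTU only without PHE (-1.04 ± 0.20, adjusted p = 0.00748) and was called in all 12 fits. Its saline level also differed between the sets, at 3.0, 3.76 and 2.96 CPM in set A. Adra1a gave 0.73 ± 0.46 (adjusted p = 0.379), Adra2b -0.32 ± 0.40 and Adra2c -0.46 ± 0.57, and none of these passed. The beta receptor gene Adrb1 fell in both backgrounds (log2 -0.70 under PHE and -0.78 without it), with an interaction of 0.08 ± 0.30. Adrb3 had at most 0.235 CPM in any of the 12 hearts.

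Downstream of these receptors, Rgs4, which speeds the switching off of Gq and Gi, had 5.64, 5.8 and 6.78 CPM in PTU+PHE hearts and 45.6, 50.2 and 44.8 CPM in PHE hearts, with 10.7, 10.3 and 9.22 CPM in PTU hearts and 38.6, 30.9 and 37.7 CPM in saline hearts. It fell in both backgrounds and further under PHE (interaction -1.12 ± 0.20, adjusted p = 0.00535). Prkcd, a protein kinase C activated by diacylglycerol, gave -0.55 ± 0.15 and was called in 4 of 12 fits. Adcy5, a main adenylyl cyclase of heart, had 105, 99.52 and 89.52 CPM in PTU+PHE hearts and 156, 149.5 and 149 CPM in PHE hearts, with 263, 248 and 246 CPM in PTU hearts and 225, 216 and 189.8 CPM in saline hearts (-0.89 ± 0.19, adjusted p = 0.0122). Adcy6 gave -0.50 ± 0.16 (adjusted p = 0.0779). Arrb1, the arrestin that uncouples receptors, rose only without PHE (-0.56 ± 0.13, called in 6 of 12 fits). The receptor kinases Grk2 (-0.22 ± 0.12), Grk3 (0.33 ± 0.25) and Grk5 (-0.28 ± 0.20) and the G protein genes Gnaq (-0.17 ± 0.20), Gna11 (-0.11 ± 0.11) and Gnai2 (-0.46 ± 0.14) were not called, nor was Arrb2 (0.19 ± 0.14). Gnas, the alpha subunit of Gs, was not called either (0.41 ± 0.30), although its counts differed steeply between the sets (26.7, 17.1 and 17.2 CPM in PTU+PHE hearts and 12.8, 12.4 and 9.68 in PHE hearts, 359, 349.6 and 366 in PTU hearts and 281, 279 and 257 in saline hearts of set B). In all, 1 of 17 genes of the adrenergic list was called above 0 and 2 below (17.6%, against 4.10% of all genes), with a median of -0.17.

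Of 17 genes known to be induced by thyroid hormone in heart, 3 had a called interaction, 17.6% of the list against 4.10% of all genes, and 14 did not. In this list 15 fell with PTU under PHE and 15 without it, against 18.6% and 15.1% of all genes. The interaction was called for Ucp3 and Me1 above 0 and for Slc2a4, the insulin-responsive glucose transporter, below 0 (-0.69 ± 0.19, called in 2 of 12 fits). The list median was 0.03. Myh6, the fast alpha myosin heavy chain, fell to 2424, 2409.6 and 1602 CPM in PTU+PHE hearts, against 34862, 28713 and 33363 CPM in PHE hearts, and to 2851, 2772 and 2701 CPM in PTU hearts, against 25898, 28041 and 33089.7 CPM in saline hearts. Its interaction was -0.53 ± 0.22 (adjusted p = 0.169). Atp2a2, which pumps calcium back into the sarcoplasmic reticulum, gave -0.17 ± 0.19, Ryr2, its release channel, -0.11 ± 0.29, and Tnni3, adult troponin I, 0.20 ± 0.21. The pacemaker channel gene Hcn2 fell steeply in both backgrounds (log2 -4.88 under PHE and -4.42 without it; interaction -0.45 ± 0.21). The interactions of Hr (-0.01 ± 0.31), Kcnd2 (0.12 ± 0.40), Kcnd3 (0.03 ± 0.29), Klf9 (0.31 ± 0.42), Kcna5 (-0.33 ± 0.39), Hcn4 (0.21 ± 0.52), Pfkfb3 (-0.04 ± 0.20) and Thrsp (0.67 ± 0.40) did not pass the test either.

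Of 8 genes that thyroid hormone represses, 5 rose and 1 fell with PTU under PHE, against 18.2% and 18.6% of all genes. Without PHE 6 rose, against 14.3% of all genes. The interaction was called for 2 (25% of the list, against 4.10% of all genes), Pln above 0 and Adcy5 below. Pln, the inhibitor of the calcium pump, had 1677, 1918 and 1656 CPM in PTU+PHE hearts and 1279, 1389 and 1202 CPM in PHE hearts, with 1125, 1226 and 1179 CPM in PTU hearts and 1323, 1315 and 1519 CPM in saline hearts (interaction 0.68 ± 0.15, adjusted p = 0.0179). PTU raised it under PHE, while all PTU hearts lay below the saline hearts of set B (log2 -0.24, adjusted p = 0.111). It lost its call without PTU+PHE 2, PTU 1 or saline 3 of set B. Tnni1, the slow troponin I of the fetal heart, reached 2299, 2865 and 3366 CPM in PTU+PHE hearts, against 36.7, 31.3 and 59.3 CPM in PHE hearts, and 1062, 1098 and 1248 CPM in PTU hearts, against 6.53, 12.1 and 4.07 CPM in saline hearts. The level with PTU was higher under PHE, but so was the level without it, and the rise was 67.1-fold under PHE and 151-fold without it (-1.17 ± 0.43, adjusted p = 0.122). Myh7, the slow beta myosin heavy chain, gave -0.36 ± 0.19, Thra -0.13 ± 0.12, Dio2 -0.41 ± 0.35 and the sodium and calcium exchanger gene Slc8a1 -0.92 ± 0.47, none of them called.

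None of 13 fetal sarcomere and fetal programme genes was called in the interaction by edgeR or DESeq2, and 3 had an unadjusted p under 0.05. Their median was -0.06. The skeletal actin Acta1 fell steeply in both backgrounds (-3.93 ± 0.45 under PHE and -4.39 ± 0.46 without it; interaction 0.46 ± 0.57), the cardiac actin Actc1 gave -0.50 ± 0.21 and the smooth muscle actin Acta2 -0.28 ± 0.28. Myh7b gave -0.40 ± 0.30, Tnnt1 0.19 ± 0.24, Tnnt3 0.21 ± 0.43, Myl4 -0.03 ± 0.24, Myl7 1.49 ± 0.64 and Myl9 -0.06 ± 0.28. The natriuretic peptide gene Nppa varied widely between hearts, with 182, 2.31 and 91.6 CPM in PTU+PHE hearts and 34.3, 291 and 111 CPM in PHE hearts, so that its interaction (1.33 ± 1.27) was poorly determined. Nppb gave -0.45 ± 0.64.

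**Figure D3:**
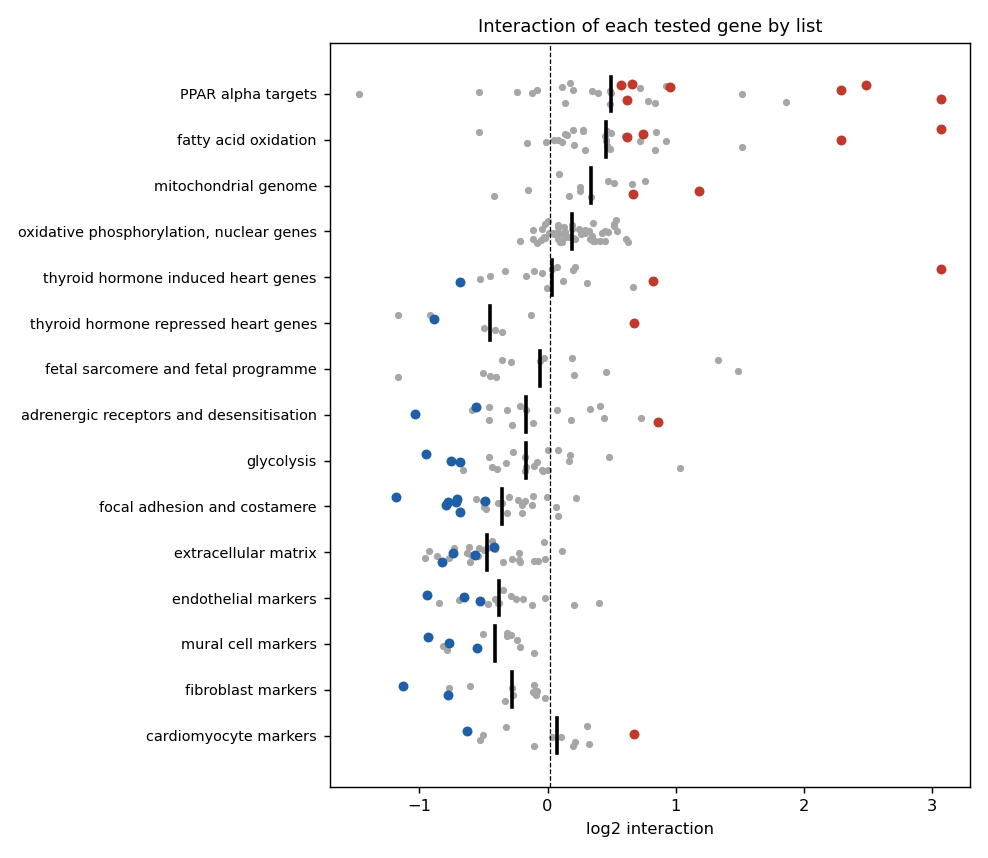
Log2 interaction of each tested gene (points) in 15 lists, with the list median as a black bar and the median of all genes, 0.02, as a dashed line; coloured points were called above 0 (red) or below 0 (blue). PPAR alpha targets and fatty acid oxidation lie to the right, matrix, focal adhesion and vascular markers to the left, and the thyroid hormone induced genes on both sides of 0, with Ucp3 and Me1 called above it and Slc2a4 below. The PPAR alpha and focal adhesion lists were assembled after values of these data had been seen.

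Of 23 glycolysis genes 3 were called below 0 and none above (13.0% of the list, against 2.69% of all genes called below 0), and DESeq2 called 5 below and 1 above. The edgeR calls were the hexokinase gene Hk1 (-0.95 ± 0.22), the phosphofructokinase gene Pfkl (-0.75 ± 0.20) and Slc2a4; the list median was -0.17. Hk1 had 316, 241 and 241 CPM in PTU+PHE hearts, 256, 255 and 232 in PHE hearts, 442, 442 and 428 in PTU hearts and 217, 211 and 204 in saline hearts, and so rose with PTU only without PHE. It lost its call without PTU+PHE 2 and without PHE 1, and Pfkl was called in 2 of 12 fits. In the citric acid cycle Ogdh, a subunit of oxoglutarate dehydrogenase, was called below 0 (-0.60 ± 0.15; 1 of 22), as were P4ha1, a collagen prolyl hydroxylase (-0.60 ± 0.15; 1 of 17 hypoxia genes), and Trp53 (-0.48 ± 0.13; 1 of 17 genes of cell cycle exit); they held in 5, 6 and 1 of 12 fits. Several lists had no call by edgeR. Among 38 genes of the cytosolic ribosome (median 0.33) 1 had an unadjusted p under 0.05 and DESeq2 called 0, and among 35 of G1 and S phase (0.26) these counts were 4 and 0. They were 9 and 3 of 27 cardiac ion channels (-0.33), 2 and 0 of 23 genes of sterol synthesis (0.12) and 1 and 1 of 20 interferon response genes (0.24). They were 2 and 2 of 18 core clock genes (0.08) and 5 and 1 of 15 macrophage markers (0.38). The other lists without an edgeR call had 0 to 7 genes at an unadjusted p under 0.05 and 0 to 3 DESeq2 calls each. These were the lists of thyroid hormone receptors and cofactors, cytokinesis, the mitochondrial ribosome, chaperones, imprinted growth genes, ventricular and atrial chamber genes, neuregulin and insulin signalling, and erythroid, epicardial and nerve markers.

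The same interaction can be formed in hearts whose beta-adrenergic receptors were also blocked, with propranolol (PRO) injected daily at 20 ug per g. It is the PTU effect in PTU+PHE+PRO against PHE+PRO hearts of set A minus that in PTU+PRO against PRO hearts of set B, 12 other libraries, with the same confounding of PHE and set. Under PRO 2234 genes were called (11.7%), a count that was 888 in a fit of these 12 libraries alone. It was 3728 without PTU+PHE+PRO 1, 1457 without PTU+PHE+PRO 2, 1300 without PTU+PRO 1, 1248 without PTU+PRO 3, 1429 without PRO 1 and 1484 without PRO 2, and within 1.5 times 2234 without each of the others. Of the 783 genes called without PRO, 704 had the same sign under PRO, 89.9% against 68.3% of the genes not called, and 290 were called there in the same direction: 37.0% of the 783 and 13.0% of the 2234. Among all genes tested, 1.52% were called in both with 1 direction. Another 8 were called in the opposite direction. The median of the 268 genes above 0 was 0.78 without PRO and 0.44 under it, and that of the 515 below 0 was -0.70 without PRO and -0.42 under it. The 783 were chosen by their values without PRO, which can make those the larger. Across the called genes the 2 interactions had a Pearson r of 0.62, and 0.46 across genes of at least 10 CPM. Genes called in both in the same direction included Cenpa (1.00 ± 0.16 under PRO), Acot1 (1.36 ± 0.43), Papln (-1.39 ± 0.31), Afmid (-1.14 ± 0.20), Adra1d (-1.50 ± 0.20) and Pacs2 (-0.66 ± 0.11). Acot1 was higher with PTU in both sets of PRO-injected hearts, without overlap. It had 52.0, 129 and 84.3 CPM with PTU+PHE+PRO and 13.2, 11.5 and 13.9 with PHE+PRO. Without PHE it had 30.1, 67.7 and 57.7 CPM with PTU+PRO and 22.1, 19.8 and 16.3 with PRO.

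**Figure D4:**
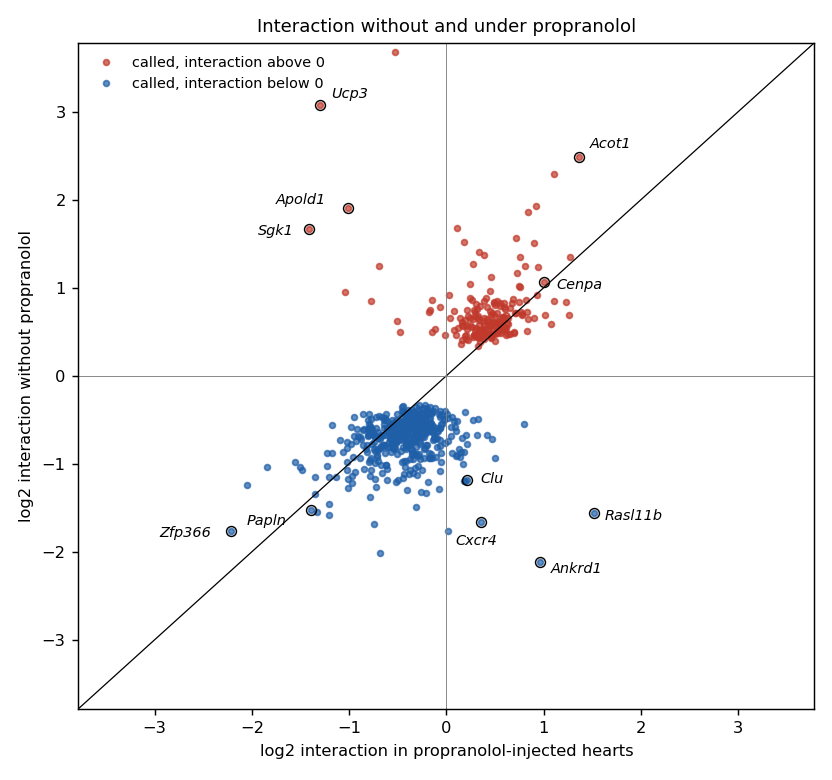
Log2 interaction without PRO (vertical axis) against that in PRO-injected hearts (horizontal axis) for the 632 called genes of at least 5 CPM; on the diagonal both are equal. Most points share a sign, while Ucp3, Sgk1, Apold1, Ankrd1, Rasl11b and Cxcr4 have opposite signs.

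The 2 interactions were tested against each other, and 85 genes differed (0.445% of those tested), 26 of them among the 783. The 85 became 36 without PTU+PRO 3 and 146 without PTU+PHE+PRO 1, and 39 to 56 without each of PTU+PHE 1 and 2, PHE 1 and 2, PTU 1, 2 and 3, saline 2 and 3 of set B, PHE+PRO 2a, PTU+PRO 1 and 2, and PRO 2 and 3. Ucp3 was the clearest: in PRO-injected hearts it had 9.94, 15.6 and 11.3 CPM with PTU+PHE+PRO, 59.49, 121 and 73.8 with PHE+PRO, 10.45, 20.1 and 19.48 with PTU+PRO and 58.7, 53.1 and 28.9 with PRO, an interaction of -1.30 ± 0.44 (adjusted p = 0.0611). The interaction without PRO minus that under PRO was 4.37 ± 0.64 (adjusted p = 0.00227). PTU+PRO hearts had more Ucp3 than PTU hearts, and PTU+PHE+PRO hearts had less than PTU+PHE hearts, each without overlap. Ankrd1 had 1125, 2681 and 2335 CPM with PTU+PHE+PRO, 591, 306 and 407 with PHE+PRO, 1427, 1770.0 and 1455 with PTU+PRO and 863, 535 and 526 with PRO. Its 2 interactions differed by -3.08 ± 0.55 (adjusted p = 0.0128). Differences were also called for Rasl11b (-3.07 ± 0.45), Cxcr4 (-2.01 ± 0.30), Clu (-1.40 ± 0.23), Sgk1 (3.08 ± 0.61), Apold1 (2.93 ± 0.59), Klf6 (1.63 ± 0.34), Slc3a2 (1.14 ± 0.25), Ccdc8 (-0.72 ± 0.15) and Tnni1 (-2.75 ± 0.61). Among lists, G2 and M phase had 24 of 37 genes called above 0 under PRO (median 1.23), against 1 without PRO. Over all 19119 genes tested, 956 were called above 0 and 1278 below 0 under PRO, against 268 and 515 without it. The 15 cyclic AMP response genes had a median of -0.84 and 5 calls below 0 under PRO, and 16 glucocorticoid targets a median of -1.04 and 7 calls below 0, whereas without PRO their medians were 0.93 and 0.52; differences between list medians were not tested. The fatty acid oxidation list had a median of 0.07 under PRO, against 0.46 without it.

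Transcript length and sex moved with the interaction and are given as measured. Genes with exons under 1 kb had a median interaction of 0.16, and those over 8 kb a median of -0.03; called genes above 0 had a median exon length of 3.87 kb and those below 0 of 5.43 kb, against 3.63 kb over all genes. The log2 level of genes over 8 kb minus that of genes under 1 kb, relative to the mean of all libraries, averaged -0.33 ± 0.12 in PTU+PHE hearts, -0.21 ± 0.08 in PHE hearts, 0.18 ± 0.0039 in PTU hearts and 0.14 ± 0.06 in saline hearts (SD, n = 3 each); saline hearts of set A were at 0.10 ± 0.05. The libraries of PHE-injected hearts thus held relatively more reads of short genes than any other libraries of the 12. With a per-library correction for length 970 genes were called, 716 of the 783 among them. Matrix genes kept a median of -0.44 and fatty acid oxidation 0.38 with this correction, and the ribosomal list had 0.27, against 0.33 uncorrected, and oxidative phosphorylation 0.10, against 0.19. With sex as a covariate 674 genes were called, 573 of them among the 783, and 15 of the 75 named calls were lost, Slc25a20, Adra1b, Kdr, Pdgfrb and Slc3a2 among them. Mitochondrial genes took 14.97% to 15.8% of reads in PTU+PHE hearts, 14.5% to 19.7% in PHE hearts, 12.04% to 13.1% in PTU hearts and 16.0% to 17.3% in saline hearts. Beyond these 2 corrections their part in the calls was not tested.

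**Figure D5:**
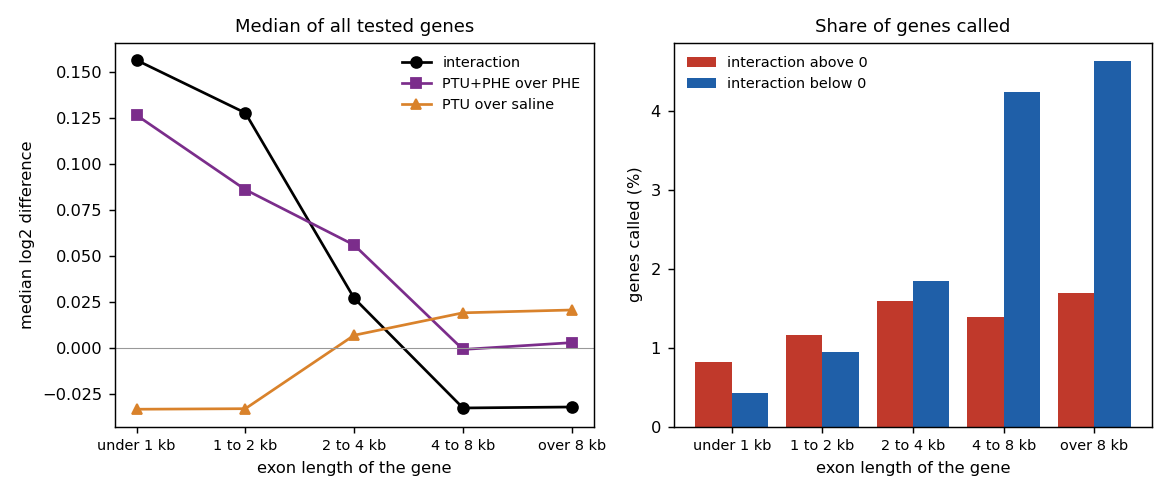
Left, the median log2 interaction and the median of each PTU effect over all tested genes in 5 classes of exon length; right, the share of genes called in each class. The median interaction falls from 0.16 in genes under 1 kb to -0.03 in those over 8 kb, and the share called below 0 grows from 0.431% to 4.64%.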

How the data were processed

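RNA from P14 CD-1 mouse hearts was sequenced in 27 libraries of 9 groups. The authors deposited raw read counts per gene; per the submitters' processing notes reads were trimmed with cutadapt 1.9, aligned to mm10 with STAR 2.5.2b and counted with featureCounts 1.5.1. Of 51826 genes in the table, 51633 had a name in GENCODE M21.

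Counts were tested with edgeR 4.0.16 in R 4.3.3 (TMM factors, filter at 10 counts, 9 group means over all 27 libraries, robust quasi-likelihood F test), which left 19119 genes; p-values were adjusted over all of them by the Benjamini-Hochberg method, and a gene is called at an adjusted p under 0.05. Values after ± are SE for log2 differences and SD for means. Sets A and B were never compared directly in the interaction: each PTU effect was taken within its set. In counts simulated from these libraries, 79 of 100 2-fold and 97 of 100 4-fold interactions were recovered. The changed genes were drawn from those of at least 5 CPM. Of 18550 genes tested, 12 unchanged ones were called. Unchanged genes had the same mean in all groups, without effects of sex, length or set, so recovery in the real data may differ. The SE of a log2 difference rests on the spread between hearts of the same group as well as on read counts.

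Genes were named by rule (largest called interactions, opposite and same direction, and leading members of lists); a few of these genes are counted but not reported by name here. The members and lists were chosen with earlier results of these data known. Alternatives comprised RLE factors, no filter, sex, a length correction, a fit of the 12 libraries with and without a replicate block, a fold threshold, DESeq2 1.42.0 and leaving out each library. Replicate numbers did not pair the 12 libraries, since 3 of 18 same-numbered pairs had a correlation above 0.1. Promoters are from RefSeq on GRCm38.p6.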

Additional observations from a re-analysis of the deposited data

Results flagged for a closer look

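The PTU effect under PHE differed from that without PHE, by edgeR's test of the interaction, for 783 genes. The interaction without PRO differed from that in PRO-injected hearts, by the test of the difference itself, for 85 genes.

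Among the named genes, the interaction without PRO minus that under PRO was called above 0 for Ucp3 (4.37), Sgk1 (3.083), Apold1 (2.926), Klf6 (1.633) and Slc3a2 (1.136), all on the log2 scale. It was called below 0 for Ankrd1 (-3.079), Rasl11b (-3.068), Tnni1 (-2.748), Cxcr4 (-2.012), Clu (-1.398) and Ccdc8 (-0.7222). Of these 11 genes, Tnni1 was not called in the interaction without PRO. Set and PHE cannot be told apart in either interaction. Groups of 3 hearts were too small to test for single outlying hearts.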

How the results depend on the processing

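The count of interaction calls was 783 and stayed between 674 and 980 with RLE factors, no filter, sex, the length correction and the fit of the 12 libraries. It was 766 with the replicate block, where 11 of the 75 named calls were lost. It was 1619 with DESeq2, 78 against a fold threshold of 1.2, 104 at an adjusted p under 0.01 and 232 to 1485 with 1 library left out. It was 219 without saline 3 of set B and PTU+PHE 3 together, a choice made after seeing the data. Of the 75 named calls, 52 held with RLE factors, no filter, sex, the length correction, DESeq2 and the fit of the 12 libraries with and without the block, and 28 also with each of the 12 libraries left out. No named call changed sign in any of these settings or with any of the 12 libraries left out. The interaction under PRO gave 888 calls in the fit of its 12 libraries and 1248 to 3728 with 1 library left out. The difference of interactions gave 147 without the filter, 266 with DESeq2 and 36 to 146 with 1 library left out. PTU under PHE gave 5726 to 6789 and PTU alone 4348 to 4750 with 1 library left out. The saline hearts of set A against those of set B gave 6000 with the replicate block in the fit of the 6 saline libraries, and 516 to 668 with 1 library left out. Where counts moved, the cause was not tested. Depth limits the rarest receptors, such as Adrb3.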
